A study of Mus musculus with 2 samples.

Results

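The 10 genes described here comprise 7 cytokine receptor chains (Il4ra, Il21r, Il2rg, Il10ra, Ifnar1, Ifngr1 and Tgfbr2) and 3 feedback inhibitors of cytokine signaling (Socs1, Socs3 and Cish). They were chosen by name from the 31053 genes of the deposited tables. Their levels were read in B cells sorted from the hearts of neonatal (2 weeks, or 15 days by the sample title) and adult (8 weeks) wild-type C57BL6/J mice, with 1 droplet library per age. Each library pooled 6 mice. The neonatal pool held males and females and the adult pool males, and no allele, transgene or treatment is given for either. Hearts of both ages went through 1 digestion protocol, and their live B cells were sorted on 1 day. Age, pool, sex composition and library cannot be told apart, and no difference between the ages has a replicate check.

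Cells were droplets with at least 2000 gene UMIs (unique molecular identifiers, by which each captured transcript is counted once), at most 10% mitochondrial UMIs and at least 1 UMI of Cd79a, a chain of the B cell receptor complex. This gave 2077 neonatal and 3611 adult cells, of 3208 and 5687 droplets with at least 500 UMIs. Median depth was nearly equal at 6000 and 6131 UMIs per cell, and the summed UMIs were 16403180 and 34623240. The B cell genes Cd79b and Ebf1 had a UMI in more than 99% of the cells of both libraries, and Ms4a1 (CD20) in 97.4% and 95.6%. Summed macrophage markers were higher in the neonatal cells (82.7 against 12.4 counts per 1000000 UMIs, CPM, with 3 of 6 markers lower at least 1.5-fold in the adult cells), and summed neutrophil markers were 27.1 and 0.029 CPM, with the defining markers S100a8 and S100a9 at 0 in the adult cells. The libraries shared 110 barcodes with at least 500 UMIs in both, 2 of which were selected in both. Droplets holding 2 cells were not removed. A level is the sum of a gene's UMIs over the cells divided by the total UMIs of those cells, in CPM. All intervals are exact 95% intervals and cover counting error only.

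Type I cytokine receptors pair a chain that binds the cytokine with a shared signaling chain, and the Janus kinases bound to them phosphorylate STAT transcription factors. Il4ra serves IL-4, and IL-13 with another partner, Il21r serves IL-21, and both can use the common gamma chain encoded by Il2rg. Il10ra, Ifnar1 and Ifngr1 are chains of the receptors for IL-10, type I interferon and interferon-gamma. Tgfbr2 is the chain that binds TGF-beta and starts Smad signaling. Socs1, Socs3 and Cish are induced by STATs and in turn restrain the receptors. In B cells, IL-4 and IL-21 are known for their part in class switching and the germinal center, and type I interferon for the antiviral state.

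Promoter sequence is shown for the members whose windows held a motif that STATs or interferon-response factors bind. Windows ran from 250 bases before to 50 bases after the RefSeq start (build GRCm38.p6), and 9 of the 10 members had one. Il10ra was not matched. The STAT motif TTCNNNGAA was present on either strand in 8.30% of 32851 windows, its form with 1 more central base in 6.95%, and the interferon-response motif GAAA followed after any 2 bases by a second GAAA in 3.44%. Among the 9 members, Cish held 2 copies of TTCNNNGAA, Socs3 and Ifnar1 held 1 each, and Socs1 held 2 overlapping copies of the interferon-response motif, which share 1 GAAA. None held the longer STAT form. A match is a description of these letters and not a binding site. Capitals mark the matches below, written 5′ to 3′ on the strand of the gene.
Cish, chr9:107296659-107296688, plus strand, first 30 bases from the RefSeq start: TTCCTGGAAagTTCTTGGAAatctgtcaaa
Socs3, chr11:117969501-117969530, minus strand, around the copy starting at -154: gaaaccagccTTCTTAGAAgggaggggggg
Ifnar1, chr16:91485200-91485229, plus strand, around the copy starting at -5: ggcgggggcgTTCACGGAAggggcggggcg
Socs1, chr16:10785537-10785786, minus strand, the 250 bases before the start, with copies starting at -83 and -77: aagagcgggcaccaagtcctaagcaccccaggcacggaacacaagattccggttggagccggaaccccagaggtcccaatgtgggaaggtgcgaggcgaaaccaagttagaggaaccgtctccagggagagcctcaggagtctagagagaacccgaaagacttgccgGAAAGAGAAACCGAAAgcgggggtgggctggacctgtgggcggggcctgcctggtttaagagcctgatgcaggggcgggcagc
In the GENCODE M21 annotation of the same build, the Cish and Socs3 genes begin upstream of these RefSeq starts, at 107296026 on chromosome 9 and 117970047 on chromosome 11, so the Cish and Socs3 stretches lie inside the annotated genes.

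The chains Il4ra, Il21r and Il10ra were higher in the adult B cells, Ifnar1 and Ifngr1 were lower, and Il2rg and Tgfbr2 differed little. Each is 1 chain of its receptor, so these levels do not stand for whole receptors. Partner chains, described further below, gave log2 ratios of adult over neonatal of 0.15 (Il10rb), -0.17 (Ifnar2), 0.03 (Ifngr2) and -0.85 (Tgfbr1). Il21r (ENSMUSG00000030745, chr7:125603429-125633570) stood at 65.8 CPM in the neonatal library (1079 UMIs) and 99.5 CPM in the adult library (3445 UMIs), a log2 ratio of 0.60 (0.50 to 0.70). Il4ra (ENSMUSG00000030748, chr7:125552120-125579474) stood at 45.4 CPM and 56.6 CPM, a log2 ratio of 0.32 (0.20 to 0.44). Il10ra (ENSMUSG00000032089, chr9:45253837-45269149) stood at 40.5 CPM and 54.0 CPM, a log2 ratio of 0.41 (0.28 to 0.54). For these 3 chains the counting intervals of the 2 libraries did not overlap, but no share of all genes without overlap is given to set beside this. Il2rg (ENSMUSG00000031304, chrX:101264378-101268255) stood at 296 CPM and 312 CPM, a log2 ratio of 0.08 (0.03 to 0.13). Tgfbr2 (ENSMUSG00000032440, chr9:116084293-116175360) stood at 88.2 CPM and 85.5 CPM, a log2 ratio of -0.04 (-0.14 to 0.05).

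The interferon receptor chains Ifnar1 and Ifngr1 went the other way. Ifnar1 (ENSMUSG00000022967, chr16:91485238-91507441) stood at 144 CPM in the neonatal and 96.3 CPM in the adult library, a log2 ratio of -0.58 (-0.66 to -0.51). Ifngr1 (ENSMUSG00000020009, chr10:19591949-19610229) stood at 126 CPM and 88.6 CPM, a log2 ratio of -0.51 (-0.59 to -0.43). Across the 10703 genes with at least 50 UMIs the median log2 ratio was -0.13, so both chains lay below it, and the 4 chains above 0 would stand further above that median. Scaling by the median of ratios added 0.15 to every log2 ratio and turned Tgfbr2 to 0.11. In droplets that met the other limits but had no Cd79a UMI, Ifngr1 stood at 617 CPM (478 to 783) in 14 neonatal droplets. In 4 such adult droplets it stood at 251 CPM (101 to 517). The part of other cell types in the Ifngr1 difference was not tested. Over 18 alternative settings its log2 ratio ran from -0.54 to -0.36.

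**Figure D1:**
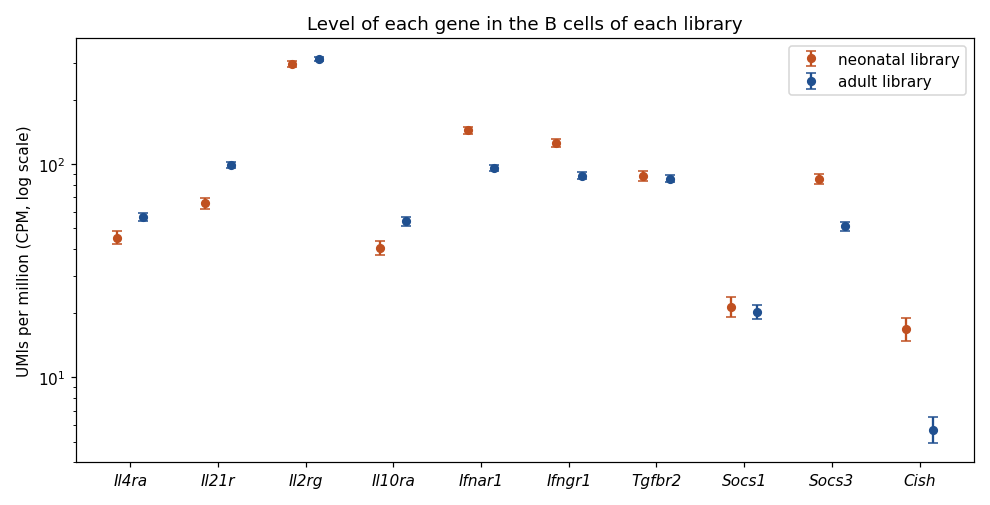
Level of each of the 10 genes in CPM on a log axis, in the neonatal (orange) and the adult (blue) B cells, with exact 95% Poisson intervals on the summed UMIs. Ifnar1, Ifngr1, Socs3 and Cish sit lower in the adult library and Il4ra, Il21r and Il10ra higher.

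Of the SOCS genes, Cish and Socs3 were lower in the adult cells and Socs1 was near the same level. Cish (ENSMUSG00000032578, chr9:107296026-107302784), known as a STAT5 target and inhibitor, stood at 16.8 CPM in the neonatal library (276 UMIs) and 5.69 CPM in the adult library (197 UMIs), a log2 ratio of -1.56 (-1.84 to -1.30). Socs3 (ENSMUSG00000053113, chr11:117966079-117970047), which binds gp130 and restrains STAT3, stood at 85.2 CPM and 51.1 CPM, a log2 ratio of -0.74 (-0.84 to -0.64). Socs1 (ENSMUSG00000038037, chr16:10782240-10785536), which inhibits Janus kinases, stood at 21.5 CPM and 20.2 CPM, a log2 ratio of -0.08 (-0.27 to 0.10). Counting a 1.5-fold difference with at least 50 UMIs, 1 member was higher in the adult library (Il21r) and 2 were lower (Socs3 and Cish), where 7.82% of all tested genes were higher and 12.2% lower. Il21r lay just inside that limit at 1.51-fold and Ifnar1 just outside it at 1.498-fold lower. No member was higher at least 1.5-fold in 9 of 18 alternative settings, for which no share of all genes is given. With each cell thinned to 2000 UMIs the 1 higher member was Il10ra (0.62) and not Il21r. Over the 18 settings the log2 ratio of Il21r ran from 0.48 to 0.75.

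The shares of cells with a UMI followed the levels of Il21r, Ifnar1, Socs3 and Cish once each cell had been thinned to 2000 UMIs. Socs1 was seen in 2.99% of the neonatal and 3.74% of the adult cells, against the direction of its level. Il4ra was seen in 10.1% and 11.4%. For both genes the intervals of the 2 shares overlapped. Il21r was seen in 13.4% of the neonatal (11.9% to 14.9%) and 19.3% of the adult cells (18.1% to 20.7%), against 34.3% and 48.4% before thinning. Ifnar1 was seen in 23.1% and 16.5%, against 56.1% and 45.7% before thinning. Socs3 was seen in 9.10% (7.90% to 10.4%) and 6.06% (5.31% to 6.89%), and Cish in 1.69% (1.18% to 2.34%) and 0.803% (0.538% to 1.15%). The free RNA of near-empty droplets would put each member in at most 0.401% of the neonatal and 0.632% of the adult cells, both values being those of Il2rg. For Cish that share was 0.0224% and 0.0119%. No single cell held more than 4.55% of the UMIs of any member.

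**Figure D2:**
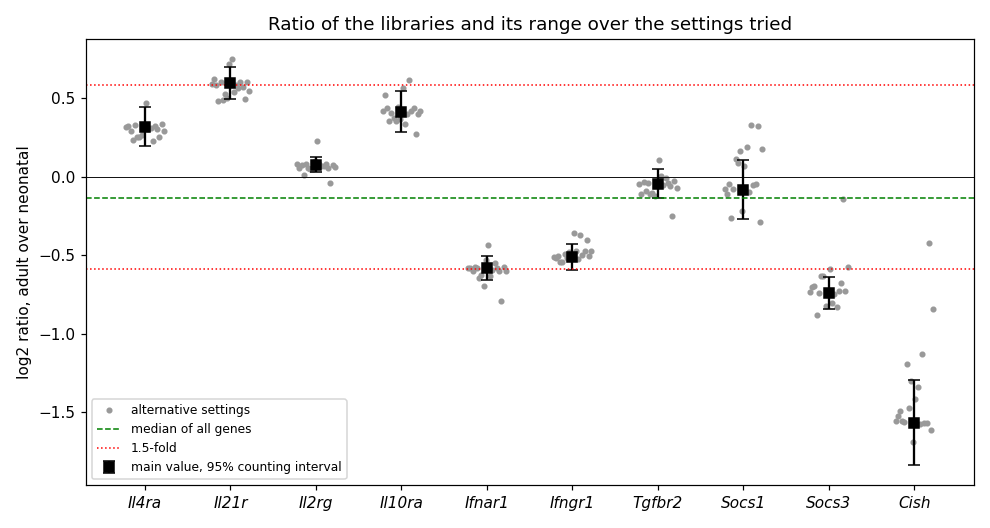
Log2 ratio of adult over neonatal for each gene, with its exact 95% interval (black squares) and the values under 18 alternative settings (grey points). The dashed line marks the median of all tested genes (-0.13) and the dotted lines 1.5-fold. The grey points of Socs3 and Cish nearest 0, at -0.14 and -0.42, are those of the cells with fewest immediate-early UMIs.

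The difference in Socs3 and Cish moved with immediate-early genes and genes of B1 cells, and that in Cish with depth, and their part in it was not tested. Immediate-early genes such as Fos, Fosb, Atf3 and Egr1 respond within minutes to stimulation and to tissue handling. Their 11 genes summed to 5303 CPM in the neonatal and 4474 CPM in the adult cells, with 4 of 11 lower at least 1.5-fold in the adult cells (Atf3 at -1.09, Fosb at -0.99, Zfp36 at -0.79 and Egr1 at -0.66). In the lowest tercile of immediate-early UMIs, Socs3 stood at 43.9 CPM in 785 neonatal and 39.8 CPM in 1431 adult cells, a log2 ratio of -0.14 (-0.36 to 0.08). In the highest tercile it stood at 125 CPM and 62.8 CPM, a log2 ratio of -0.999 (-1.16 to -0.84). Cish stood at 8.35 CPM and 6.25 CPM in the lowest tercile, a log2 ratio of -0.42 (-0.95 to 0.13), and at 28.4 CPM and 4.51 CPM in the highest, a log2 ratio of -2.66 (-3.18 to -2.16). The ratios of both genes were thus nearest 0 in the cells with fewest immediate-early UMIs. Ifnar1 went the other way, with a log2 ratio of -0.79 (-0.92 to -0.66) in the lowest and -0.29 (-0.44 to -0.15) in the highest tercile.

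Cish was read mostly in the cells with most UMIs. Among cells with more than 8142 UMIs it stood at 33.2 CPM in 529 neonatal and 7.77 CPM in 1367 adult cells, a log2 ratio of -2.10 (-2.37 to -1.82). In the middle tercile of depth it stood at 1.54 CPM and 1.52 CPM, a log2 ratio of -0.01 (-1.56 to 1.48), so no difference was detectable at that depth. Socs3 was lower in the adult library in all 3 terciles, with log2 ratios of -1.01, -0.88 and -1.02 from the lowest to the highest. Socs1 was higher in the adult cells of the middle tercile, at 0.88 (0.44 to 1.33), and lower in those of the highest, at -0.56 (-0.79 to -0.33). Il10ra showed no detectable difference in the lowest tercile, at 58.4 CPM in the neonatal and 56.9 CPM in the adult library (-0.04, -0.34 to 0.28), and was higher in the adult cells of the middle (0.65, 0.41 to 0.89) and the highest tercile (0.50, 0.31 to 0.69). Il4ra was above 0 in each tercile, but its intervals in the lowest (0.24, -0.06 to 0.54) and the middle (0.22, -0.01 to 0.44) crossed 0.

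Sex could be read in the pooled neonatal library from Xist and Y-linked transcripts. Cish was lower in 323 neonatal cells with Xist and no Y-linked UMI than in 1279 with a Y-linked UMI and no Xist (9.71 against 19.6 CPM, log2 ratio -1.02, -1.74 to -0.37). Cells with both or neither were left out, so the sets depend on which UMIs were caught. The parts of depth and of genes of B1 cells in this difference were not tested. Il21r was higher in the cells with Xist (79.6 against 59.9 CPM, log2 ratio 0.41, 0.16 to 0.65). With male cells alone, Cish gave a log2 ratio of adult over neonatal of -1.69 (-1.98 to -1.39), Socs3 -0.74 (-0.86 to -0.62), Il21r 0.72 (0.60 to 0.85) and Ifnar1 -0.53 (-0.62 to -0.44).

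To follow the CD21 and CD23 axis along which the study divides heart B cells, cells were grouped by at least 1 UMI of Cr2, which encodes CD21, and of Fcer2a, which encodes CD23. Among neonatal cells, 1032 had neither, 120 had Cr2 only, 702 had Fcer2a only and 223 had both. Among adult cells these groups held 649, 330, 1260 and 1372 cells. Adult cells with both were the deepest (median 9083 UMIs), while adult cells with Fcer2a only (4602.5) and with neither (4654) had about the same depth.

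In the adult heart the CPM levels of all 7 receptor chains were higher in cells with Fcer2a, with or without Cr2. Il21r stood at 71.2 CPM in adult cells with neither transcript, 77.7 CPM with Cr2 only, 103 CPM with Fcer2a only and 109 CPM with both. The intervals of the 2 adult groups with Fcer2a lay above those of the other 6 groups of both ages. Il4ra was likewise higher in the 2 groups with Fcer2a, at 41.1, 43.8, 61.8 and 60.4 CPM in the adult cells. Il10ra stood at 41.9, 39.3, 57.5 and 58.0 CPM in the adult cells and between 38.1 and 42.3 CPM in all 4 neonatal groups. For Il10ra the adult and neonatal intervals were apart in both groups with Fcer2a and overlapped in the other 2 groups. Il2rg stood at 261, 259, 339 and 323 CPM in the adult groups in the same order, and Tgfbr2 at 67.4, 69.5, 96.8 and 88.0 CPM. After thinning, the shares of adult cells with a UMI were 9.24%, 9.09%, 10.5% and 10.9% for Il10ra. For Ifnar1 they were 16.0%, 15.8%, 17.3% and 16.2%. The intervals of the 4 shares overlapped for both genes, Il21r and Ifngr1. For Il4ra, Il2rg and Tgfbr2 the intervals of Fcer2a only and neither were apart. No share of all genes with intervals apart is given to set beside this, nor beside the intervals of Il21r and Il10ra levels above. Cells with B1 genes, defined below, made up 17.3%, 18.5%, 4.13% and 9.26% of the adult groups in this order. Leaving them out is among the alternative settings below.

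Between all adult cells with and without Fcer2a, the log2 ratio was 0.54 (0.41 to 0.67) for Il21r, 0.53 (0.36 to 0.70) for Il4ra and 0.50 (0.33 to 0.68) for Il10ra. It was 0.41 (0.28 to 0.55) for Tgfbr2, 0.35 (0.22 to 0.49) for Ifngr1, 0.33 (0.26 to 0.40) for Il2rg and 0.27 (0.15 to 0.40) for Ifnar1. The median of the 7 chains was 0.41, against 0.11 over the 10153 genes tested in this comparison. In the neonatal cells it was 0.17 against -0.02 over 9250 genes, led by Il21r at 0.35 (0.18 to 0.53), Tgfbr2 at 0.26 and Il2rg at 0.24 (0.16 to 0.32). In the adult cells none of the 11 alternative settings turned a chain below 0, and the lowest value was 0.07 for Ifnar1.

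The 3 SOCS genes were on the other side, lower in adult cells with Fcer2a. Cish stood at 4.86 CPM with and 8.48 CPM without it (log2 ratio -0.80, -1.24 to -0.35), Socs1 at 19.0 and 24.6 CPM (-0.37, -0.61 to -0.13) and Socs3 at 49.5 and 56.5 CPM (-0.19, -0.35 to -0.03). Cish was the only member past 1.5-fold in this comparison, lower, where 4.53% of adult genes were lower and 5.6% higher. In the neonatal cells no member passed 1.5-fold, with 4.49% of genes lower and 2.02% higher. The Socs3 ratio turned to 0.14 in the adult and 0.13 in the neonatal cells when only the lowest tercile of immediate-early UMIs was used. Neonatal Cish turned from -0.48 to 0.39 when cells with B1 genes were left out. Among adult cells without B1 genes, Socs3 stood at 40.3 CPM with neither, 43.9 with Cr2 only, 43.7 with Fcer2a only and 38.3 with both. The intervals of these Socs3 levels overlapped. In the same order, Socs1 stood at 29.9, 20.8, 20.6 and 16.9 CPM and Cish at 6.41, 4.98, 2.36 and 3.79 CPM. The part of cells with B1 genes was not tested.

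**Figure D3:**
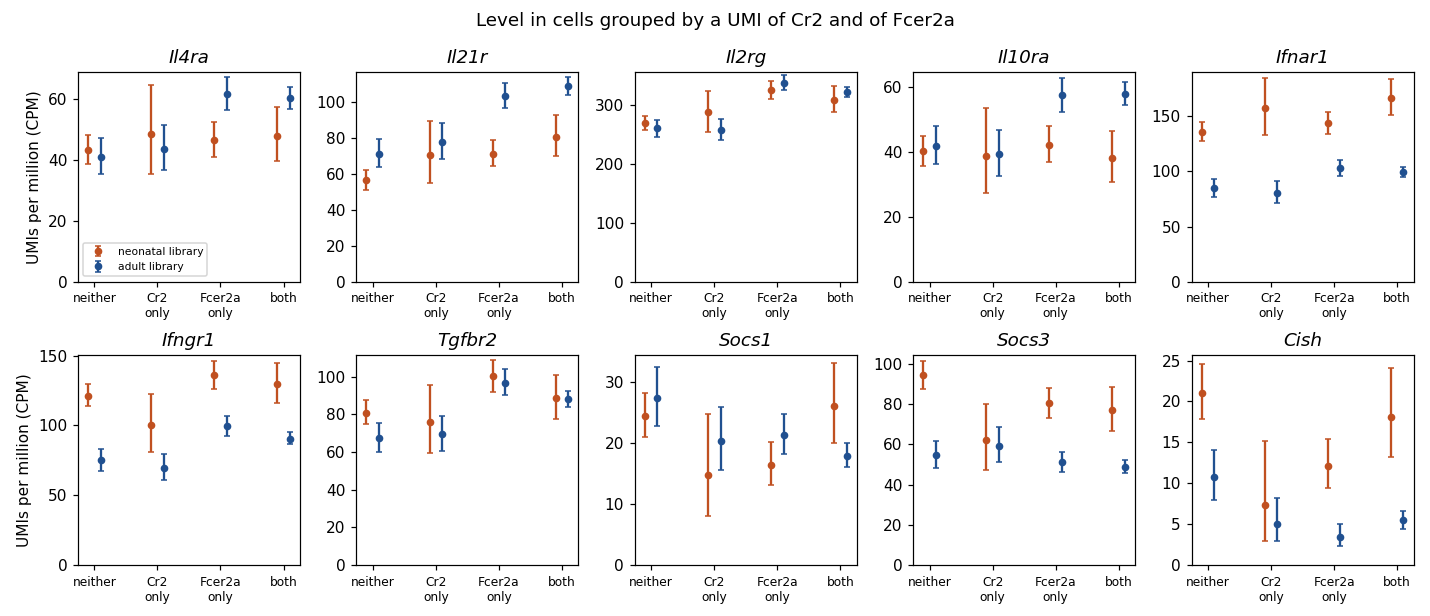
Level of each gene in CPM in cells with neither transcript, Cr2 only, Fcer2a only or both, for the neonatal (orange) and adult (blue) library, with exact 95% Poisson intervals. The 7 receptor chains step up in the adult cells with Fcer2a, Ifnar1 stays lower in each adult group, and Cish is highest in neonatal cells with neither transcript. Among neonatal cells without B1 genes (not drawn), Cish stood at 6.26, 3.64, 8.33 and 6.27 CPM in the order of the groups.

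In the adult cells Cr2 without Fcer2a was not accompanied by detectably higher receptor levels. Between cells with Cr2 only and cells with neither, the median log2 ratio of the 7 chains was -0.01 for adult and 0.10 for neonatal cells, against 0.01 and -0.02 over all tested genes. All 7 intervals crossed 0 in both libraries. In the 120 neonatal cells with Cr2 only these intervals were wide, with 4 chains above 0 and 3 below. Neonatal Il21r gave 0.32 (-0.07 to 0.70), near the 0.34 (0.13 to 0.54) of Fcer2a only over neither. The neonatal cells thus did not set Cr2 only apart from Fcer2a only for this chain. Cish was lower with Cr2 only in both libraries, with 7 UMIs and 7.38 CPM in the neonatal cells with Cr2 only (-1.51, -2.85 to -0.43) and 5.08 against 10.7 CPM among adult cells (-1.08, -1.99 to -0.25). Among cells without B1 genes the Cish intervals of these groups overlapped. The neonatal levels there were 3.64 CPM (0.75 to 10.6) with Cr2 only and 6.26 CPM (4.36 to 8.71) with neither. The adult levels were 4.98 CPM (2.49 to 8.91) and 6.41 CPM (3.96 to 9.79). Over all adult cells of these groups Cish was the only member past 1.5-fold, where 2.88% of genes were lower and 3.27% higher. In the neonatal cells Socs1 and Socs3 were past it too, where 10.2% of genes were lower and 3.86% higher.

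Between cells with both transcripts and cells with neither, no neonatal member passed 1.5-fold, with 3.4% of genes higher and 5.6% lower. In the adult cells 1 was higher (Il21r at 0.61, 0.44 to 0.78) and 2 were lower (Socs1 at -0.61, -0.91 to -0.31, and Cish at -0.98, -1.47 to -0.46), with 7.37% of genes higher and 3.65% lower. The count of higher members went from 0 to 4 over the alternative settings, the latter with a minimum of 5000 UMIs per cell. No share of all genes under those settings is given to set beside these counts.

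The difference between the ages held within these groups for the chains Ifnar1 and Ifngr1. Ifnar1 was lower in the adult cells in all 4, with log2 ratios of -0.68 (-0.86 to -0.52) with neither transcript, -0.96 (-1.26 to -0.66) with Cr2 only, -0.48 (-0.63 to -0.34) with Fcer2a only and -0.75 (-0.90 to -0.59) with both. Every neonatal group lay above every adult group for this gene, with no overlap of intervals, but no share of all genes without overlap is given to set beside this. Ifngr1 gave -0.69, -0.52, -0.45 and -0.52 in the same order, with all 4 intervals below 0. Socs3 gave -0.79 (-1.0 to -0.58), -0.07 (-0.50 to 0.38), -0.65 (-0.85 to -0.45) and -0.66 (-0.88 to -0.43), so the cells with Cr2 only did not differ detectably. Cish gave -0.97, -0.54, -1.80 and -1.72, with the interval of the Cr2-only cells crossing 0 (-1.90 to 0.98).

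Il4ra and Il10ra showed no detectable difference between the ages in cells without Fcer2a. With Cr2 only the intervals were wide, at -0.15 (-0.64 to 0.37) for Il4ra and 0.01 (-0.53 to 0.58) for Il10ra. The median over all tested genes was -0.25 with neither transcript, -0.21 with Cr2 only, -0.12 with Fcer2a only and -0.10 with both. Il4ra gave -0.07 (-0.34 to 0.19) with neither transcript and 0.41 (0.19 to 0.63) with Fcer2a only. Il10ra gave 0.06 (-0.21 to 0.32) with neither, 0.44 (0.21 to 0.68) with Fcer2a only and 0.61 (0.30 to 0.92) with both. Il21r was above 0 in all 4 groups, from 0.14 (-0.26 to 0.55) with Cr2 only to 0.54 (0.36 to 0.72) with Fcer2a only. Within the cells with neither transcript, 4 members were lower in the adult library by at least 1.5-fold (Ifnar1, Ifngr1, Socs3 and Cish) and none was higher, where 20.6% of genes were lower and 5.38% higher. Within the cells with both, 3 were lower (Ifnar1, Socs3 and Cish) and Il10ra was higher, where 11.6% of genes were lower and 9.69% higher. With Fcer2a only, Socs3 and Cish were lower, where 9.99% of genes were lower and 5.89% higher. With Cr2 only, Ifnar1 was lower among the 9 members with 50 UMIs, where 21.8% of genes were lower and 9.45% higher.

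Cish and Socs3 in both libraries, and Socs1 in the neonatal library, were higher in cells that carried genes of B1 cells, the innate-like B cells known for natural IgM, than in the other cells. A cell was counted when at least 3 of 8 B1 genes (Cd5, Bhlhe41, Zbtb32, Ahnak, S100a6, Plac8, Cd9 and Ctla4) had a UMI after thinning to 2000 UMIs, which 207 neonatal (9.97%) and 352 adult cells (9.75%) met. Of these, 137 neonatal and 112 adult cells had neither Cr2 nor Fcer2a, and 17 and 127 had both. Ighm, the IgM heavy chain, stood at 4436 against 4493 CPM in the other neonatal cells, and at 3750 against 3125 CPM in the adult library. The set is thus named by its genes and was not shown to be B1 cells. Cish stood at 56.7 CPM in these cells and 6.86 CPM in the other neonatal cells, a log2 ratio of 3.05 (2.68 to 3.43). In the adult library it stood at 13.5 CPM and 3.83 CPM, a log2 ratio of 1.82 (1.40 to 2.24). The cells with B1 genes held 67.4% of all neonatal Cish UMIs and 45.7% of the adult ones, while holding 20.0% and 19.2% of all UMIs.

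Socs3 stood at 185 CPM in neonatal cells with B1 genes and 60.2 CPM in the others, a log2 ratio of 1.62 (1.47 to 1.78), and at 96.3 CPM and 40.3 CPM in the adult library, a log2 ratio of 1.26 (1.11 to 1.40). Socs1 stood at 37.5 CPM and 17.4 CPM in the neonatal library, a log2 ratio of 1.10 (0.78 to 1.43), and at 22.5 CPM and 19.7 CPM in the adult library, a log2 ratio of 0.19 (-0.08 to 0.46). All 7 receptor chains were lower in the cells with B1 genes in both libraries. Il21r was furthest down, at 36.3 against 73.1 CPM in the neonatal (-1.01, -1.30 to -0.73) and 68.8 against 107 CPM in the adult cells (-0.63, -0.78 to -0.49). The intervals of neonatal Il10ra and Ifngr1 crossed 0. Past 1.5-fold, 3 members were higher and 1 was lower in the neonatal cells, where 7.76% of genes were higher and 10.2% lower. In the adult cells 2 were higher and 1 was lower, where 5.75% of genes were higher and 7.12% lower.

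The cells with B1 genes were deeper than the rest, with medians of 12485 against 5824 UMIs per neonatal cell and 14690.5 against 5481 UMIs per adult cell. Among cells with more than 8142 UMIs, Cish and Socs3 were still higher in the cells with B1 genes. Depth was not equal there either, with medians of 14745 against 11083 UMIs in the neonatal and 15654 against 12371 UMIs in the adult library. The part of this remaining gap was not tested. Cish stood at 62.2 CPM in 160 neonatal cells with B1 genes and 15.4 CPM in 369 without (2.02, 1.62 to 2.42), and at 13.8 and 5.53 CPM in the adult library (1.32, 0.89 to 1.75). Socs3 gave 1.15 (0.96 to 1.34) and 1.05 (0.90 to 1.20) in these deep cells. In the middle tercile of depth Socs3 gave 1.66 (1.08 to 2.19) in 36 neonatal cells with B1 genes, and in 28 adult cells the 2 UMIs left no detectable difference (-1.30, -4.36 to 0.58). Cish had 0 UMIs in these 36 and 28 cells, against 10 UMIs in the other neonatal and 8 in the other adult cells of that tercile. The higher Cish level with B1 genes was thus read almost only in the deepest cells. Among the deep cells all 7 receptor chains stayed lower in the adult cells with B1 genes, while in the neonatal library Ifngr1 stood at 0.02 (-0.18 to 0.21) and the intervals of Il4ra (-0.19, -0.56 to 0.17) and Il10ra (-0.33, -0.70 to 0.04) crossed 0. In the middle tercile neonatal Il10ra was higher in the cells with B1 genes (0.84, 0.04 to 1.55), from 17 UMIs. Thinned to 2000 UMIs, Socs3 had a UMI in 22.7% (17.2% to 29.0%) of neonatal cells with B1 genes and 7.59% (6.43% to 8.89%) of the others, and in 11.6% and 5.46% of the adult ones. Cish had one in 7.73% (4.48% to 12.2%) against 1.02% (0.61% to 1.58%) in the neonatal library. Immediate-early UMIs moved with this in the neonatal library (6787 against 4933 CPM) and not in the adult library (4464 against 4477 CPM). Summed macrophage markers were 84.8 against 82.2 CPM in the neonatal and 30.0 against 8.19 CPM in the adult library. Summed over macrophages and the other non-B cell types, without Pecam1, markers stood at 180 against 111 CPM and 50.6 against 21.5 CPM.

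**Figure D4:**
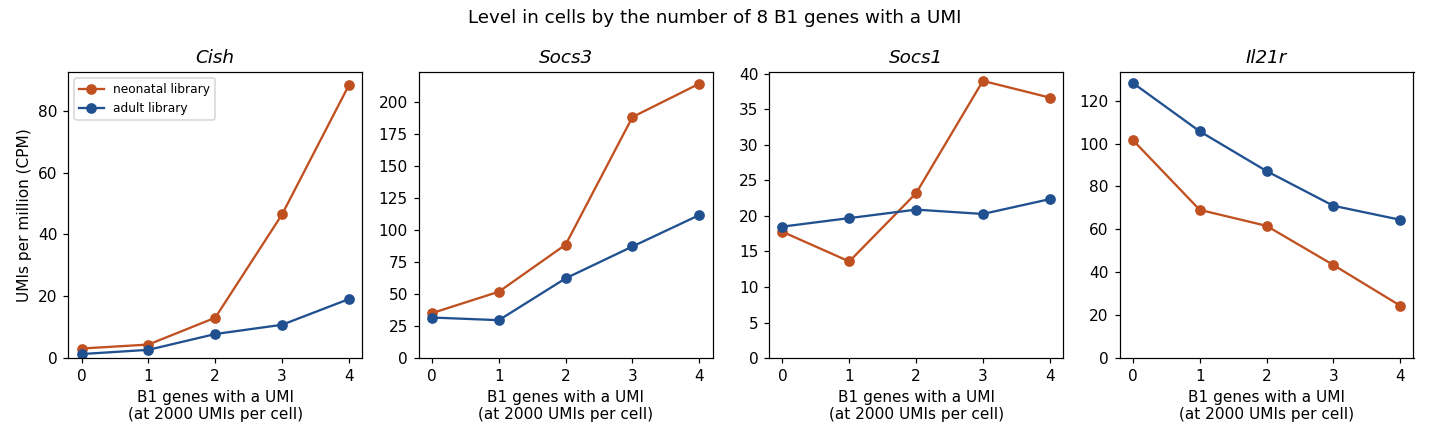
Level of Cish, Socs3, Socs1 and Il21r in CPM in cells with 0 to 4 of the 8 B1 genes, for the neonatal (orange) and adult (blue) library. Cish and Socs3 are highest in the cells with 3 or 4 B1 genes and Il21r is highest in the cells with 0. The few cells with 5 or 6 are not drawn. Median depth rose with the number of B1 genes over the range drawn.

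The levels of Cish and Il21r were graded across the limit of 3 genes, from 0 to 4 genes, and so was depth. Median UMIs per cell with 0, 2, 3 and 4 B1 genes were 5507, 6273, 11060 and 17744 in the neonatal library. In the adult library they were 4391, 10169, 14574 and 14729. The part of depth in these grades was not tested. Neonatal Cish stood at 3.09 CPM in 438 cells with 0 of the B1 genes, 13.1 CPM in 500 cells with 2, 46.5 CPM in 152 cells with 3 and 88.3 CPM in 40 cells with 4. Adult Cish stood at 1.30, 7.78, 10.8 and 19.1 CPM in the same order. Neonatal Il21r went the other way, from 102 CPM with 0 to 24.4 CPM with 4 B1 genes. With the cells with B1 genes left out, the log2 ratio of adult over neonatal was -0.84 (-1.26 to -0.42) for Cish and -0.58 (-0.71 to -0.44) for Socs3, and that of Ifnar1 was -0.60 (-0.68 to -0.51). Within the cells with B1 genes, Cish gave -2.07 (-2.45 to -1.70), Socs1 -0.74 (-1.09 to -0.38) and Il21r 0.92 (0.63 to 1.23).

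Cells without Cr2 or Fcer2a could be split by Vpreb3, a gene expressed by immature and transitional B cells. Vpreb3 stood at 471 CPM in neonatal and 137 CPM in adult cells with neither transcript. In adult cells it was higher with Fcer2a only (204 CPM) and with both (188 CPM), and stood at 104 CPM with Cr2 only. Neonatal cells with neither transcript were shallower with Vpreb3 than without it (median 5275 against 7949 UMIs), and the part of depth was not tested. Cish stood at 6.73 CPM in 749 neonatal cells with Vpreb3 and 43.5 CPM in 283 without it, a log2 ratio of -2.69 (-3.31 to -2.12), and at 2.08 CPM and 14.5 CPM in the adult library (-2.80, -5.13 to -1.17). Split instead by B1 genes, the neonatal cells with neither transcript gave 63.6 CPM in 137 cells with B1 genes and 6.26 CPM in the other 895. In the adult library Cish stood at 20.4 CPM in 112 and 6.41 CPM in 537 such cells. The part of B1 genes in the split by Vpreb3 was not tested. Il21r was higher with Vpreb3, at 69.5 against 35.6 CPM in the neonatal (0.96, 0.64 to 1.30) and 90.9 against 62.6 CPM in the adult library (0.54, 0.21 to 0.86). Il10ra was likewise higher with Vpreb3, at 0.75 (0.38 to 1.13) and 0.47 (0.04 to 0.90). Socs3 was lower, at -0.52 and -0.59. Socs1 differed in direction between the libraries, at -0.47 (-0.90 to -0.03) in the neonatal and 0.71 (0.17 to 1.23) in the adult cells.

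In the adult library Socs1 was higher in cells that carried interferon-response genes than in the other cells. At least 3 of 8 such genes (Ifit1, Ifit2, Ifit3, Isg15, Irf7, Rsad2, Oasl2 and Rtp4) had a UMI in 103 adult and 9 neonatal cells after thinning. In the adult library Socs1 stood at 89.7 CPM in those cells and 17.6 CPM in the others, a log2 ratio of 2.35 (2.05 to 2.64). They held 16.4% of the adult Socs1 UMIs and 3.70% of all UMIs. Il10ra stood at 74.1 CPM and 53.2 CPM, a log2 ratio of 0.48 (0.16 to 0.78). The interferon receptor chains Ifnar1, at -0.21 (-0.51 to 0.06), and Ifngr1, at -0.27 (-0.58 to 0.03), were not higher there. Il4ra was lower at -0.44 (-0.86 to -0.05). The median over the 10153 genes tested in this comparison was -0.18, near the values of Ifnar1 and Ifngr1. Past 1.5-fold, Socs1 and Cish were higher and 0 members were lower, where 7.9% of genes were higher and 20.0% lower. The interval of Cish crossed 0 (0.88, -0.06 to 1.69). The adult cells with interferon-response genes were deeper than the others (median 10053 against 5990.5 UMIs), and the part of depth was not tested. With these cells left out, Socs1 gave a log2 ratio of adult over neonatal of -0.28 (-0.48 to -0.09). The 9 neonatal cells held too few UMIs to place any SOCS gene.

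The rest of the pathway was described from lists of partner chains, other receptors, kinases and STATs, inhibitors, Smad genes and ligands. Of the partner chains, Il10rb (0.15), Ifnar2 (-0.17) and Ifngr2 (0.03) stayed within 1.5-fold between adult and neonatal cells. The intervals of Ifnar2 and Ifngr2 lay nearer 0 than those of Ifnar1 and Ifngr1, with no overlap, and no share of other gene pairs is given to set beside this. Tgfbr1, the kinase chain that pairs with Tgfbr2, was lower in the adult cells, at 33.0 CPM in the neonatal and 18.3 CPM in the adult library (-0.85, -1.02 to -0.68). Il13ra1, which pairs with Il4ra for IL-13, had 30 neonatal and 3 adult UMIs, under the minimum of 50.

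Among the kinases and STATs, Stat2, which serves the type I interferon receptor, was higher in the adult cells, at 21.6 and 33.2 CPM (0.62, 0.44 to 0.79), as was Jak3, the kinase of the common gamma chain, at 7.99 and 13.7 CPM (0.78, 0.50 to 1.07), both past 1.5-fold. Jak1 (0.15), Jak2 (0.34), Tyk2 (0.10), Stat4 (0.21), Stat5a (-0.09), Stat5b (-0.15), Stat6 (-0.25) and Stat3 (-0.33) stayed within it. All 8 interferon-response genes were higher at least 1.5-fold in the adult cells, with a median log2 ratio of 2.26. The largest ratios were those of Ifit1 (4.18), Ifit3 (3.99), Ifit2 (3.63) and Isg15 (2.49). Of all tested genes, 7.82% were higher at least 1.5-fold, the share to set beside Stat2, Jak3 and these 8. The lists were chosen with earlier results of these data known. The chains Ifnar1 and Ifngr1 were thus lower in the library in which Stat2 and the interferon-response genes were higher.

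Of 11 other cytokine receptors with 50 UMIs, 1 was higher and 3 were lower in the adult cells, where 7.82% of all tested genes were higher and 12.2% lower. Il9r, the IL-9 receptor, stood at 3.17 CPM and 26.9 CPM (3.08, 2.68 to 3.51). Il7r, used by B cell precursors, stood at 7.86 and 1.85 CPM (-2.09, -2.54 to -1.65), Il6ra at 27.2 and 14.7 CPM (-0.88, -1.07 to -0.70) and Csf2rb at 21.5 and 13.1 CPM (-0.72, -0.92 to -0.51). Csf2rb and Il6ra are also expressed by myeloid cells, whose markers were higher in the neonatal library, and the part of such cells was not tested.

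Of 12 other negative regulators, 1 was higher and 2 were lower, against the same shares of all genes (7.82% and 12.2%). Usp18, an interferon-induced inhibitor of Ifnar2, stood at 2.19 CPM and 18.1 CPM (3.04, 2.56 to 3.57). Socs2, a further SOCS gene, stood at 3.17 CPM (52 UMIs) and 0.462 CPM (16 UMIs) (-2.78, -3.69 to -1.95), and Pias4 gave -0.61 and Ptpn2 -0.53. Of 7 Smad pathway genes, the corepressors Tgif1 (-0.93, -0.99 to -0.86) and Ski (-0.78, -0.93 to -0.62) were lower, and Smad2 gave -0.52. The median of these 7 was -0.29, while Tgfbr2 itself stood at -0.04.

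Transcripts of the interleukins and interferons listed as ligands were scarce in the sorted cells, and those of Tgfb1 were not. Il4, Il13, Il21 and Ifnb1 had 0 UMIs in both libraries, which allows up to 0.183 CPM in the neonatal and 0.0866 CPM in the adult cells by a limit of 3 UMIs. Il10 stood at 2.38 CPM and 4.85 CPM (1.03, 0.52 to 1.57), Il2 at 2.19 and 0.866 CPM (-1.34, -2.09 to -0.60) and Ifng at 1.52 and 0.895 CPM. Tgfb1, the ligand of Tgfbr2, stood at 250 CPM and 200 CPM (-0.32, -0.38 to -0.27).

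**Figure D5:**
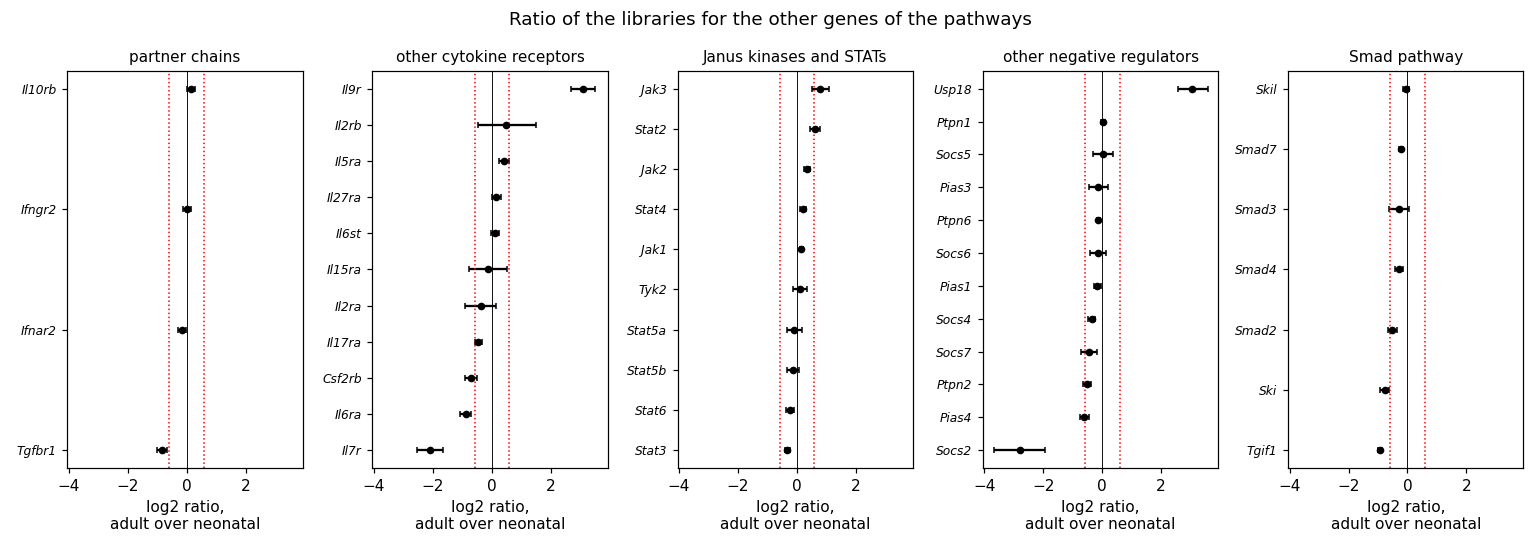
Log2 ratio of adult over neonatal for the other reported genes of the pathways with at least 50 UMIs over both libraries, with exact 95% intervals. Dotted lines mark 1.5-fold. Il9r, Usp18, Jak3 and Stat2 lie to the right, and Socs2, Il7r, Tgif1, Il6ra and Tgfbr1 to the left.

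Across the 8 sums of cells (4 groups in each of 2 libraries), some pairs of members moved together. The levels of Il2rg and Tgfbr2 gave a Pearson r of 0.93, those of Ifnar1 and Ifngr1 0.88 and those of Il4ra and Il21r 0.87. Socs3 and Cish gave 0.85, while Il21r and Socs3 gave -0.78. These pairs were not separate sets, as Il4ra gave 0.82 with Il2rg, and Ifngr1 gave 0.74 with Tgfbr2 and 0.73 with Socs3. Among 2591 genes with 50 UMIs in every sum, the pattern of Il21r was most like that of Map2k1 (0.95), Il2rg that of Satb1 (0.97), Ifnar1 that of Rnf111 (0.995), Ifngr1 that of Tnrc6c (0.99), Tgfbr2 that of Arfgef1 (0.97) and Socs3 that of Tagln2 (0.98). These are descriptions over 8 sums that share 2 libraries. Il4ra, Il10ra, Socs1 and Cish had too few UMIs in a sum for this search.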

How the data were processed

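B cells of 2 pooled samples were profiled by 10x 3′ v3 single-cell sequencing. The authors deposited unnormalized UMI counts for each gene in each droplet, made with Cell Ranger (3.0.2 per the file headers) on mm10, with empty droplets included. The annotation they used was not given in the sources used here. The antibody rows held 3 and 2 UMIs and were not used. Groups came from the age labels.

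UMIs were summed over the cells and divided by their total, with exact Poisson, conditional binomial and Clopper-Pearson intervals at 95%. Total counts set the precision, and genes under 50 UMIs were not counted. With 1 library per age there was no test across samples. Cells were thinned to 2000 UMIs with seed 11 for shares and for gene sets per cell. Free RNA was read from droplets of ranks 45000 to 90000. The scripts ran on scipy 1.17.1, numpy 2.4.6, pandas 2.3.3 and matplotlib 3.10.9 under Python 3.11.15, and the calculations were tested on simulated data. Gene positions are from GENCODE M21 (99.6% of gene IDs matched) and promoters from RefSeq.

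The members and lists were chosen with earlier results of these data known. Named were all members, partner chains, kinases and STATs (not all of which are reported here), and up to 4 genes with the largest ratio of each other list. Il4, Il13, Il21, Ifnb1 and Tgfb1 and the lists by cell were singled out after their values were seen. Alternatives changed cell selection, scaling, depth and grouping. The left-out cells with B1 or interferon-response genes, the lowest tercile of immediate-early UMIs, a marker list without Pecam1 and the alternatives of the comparison by Fcer2a were added after seeing the data.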

Additional observations from a re-analysis of the deposited data

Results flagged for a closer look

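Il10ra and Socs1 went in opposite directions in the 2 libraries when cells with both Cr2 and Fcer2a were compared with cells with neither. Il10ra gave a log2 ratio of -0.081 (-0.43 to 0.26) in the neonatal and 0.47 (0.25 to 0.69) in the adult library. Socs1 gave 0.092 (-0.34 to 0.51) in the neonatal and -0.61 (-0.91 to -0.31) in the adult library. With 1 library per age the difference was not tested, and the neonatal intervals crossed 0 for both genes.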

How the results depend on the processing

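No paired analysis was possible because each age had 1 library. The limits are those of 1 library per age, of few UMIs for Cish and Socs1, and of groups that differ in depth. Among the log2 ratios of adult over neonatal, 143 of 180 alternative values lay within the counting interval of the reported one and 1 turned, Il2rg to -0.037 in the lowest tercile of immediate-early UMIs. Tgfbr2 and Socs1, whose intervals crossed 0, ran from -0.25 to 0.11 and from -0.28 to 0.33. What follows gives the values that changed sign where the reported interval excluded 0. It also gives the counts that moved by more than 1.5 times and the medians that left the median bounds of the counting intervals. The cause was not tested. No share of all genes past 1.5-fold is given for any alternative setting, so the counts of members cannot be set against one. Of the members at least 1.5-fold higher in the adult library, 0 rather than 1 remained without a mitochondrial limit, at 7.5%, without the largest 5% of droplets, without barcodes seen in both libraries, without droplets of other cell types (with or without Pecam1 counted), with means over cells, in the lowest immediate-early tercile and without cells with B1 genes. The lower members were 1 in the lowest immediate-early tercile and 3 rather than 2 in 7 settings, among them that without a mitochondrial limit. The median of the members was 0.087 with median-of-ratios scaling.

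For cells with both transcripts over neither in the neonatal library, groups called after thinning turned Il21r to -0.23, Ifnar1 to -0.060 and Socs3 to 0.012. Over the settings 6 members whose reported intervals crossed 0 took both signs, namely Il4ra (-0.55 to 0.94), Il10ra (-0.47 to 0.13), Ifngr1 (-0.29 to 0.17), Tgfbr2 (-0.14 to 0.31), Socs1 (-1.03 to 1.14) and Cish (-2.36 to 0.58). The higher members were 2 with that grouping and with at least 2 UMIs for a call, and 1 with a minimum of 5000 UMIs. The lower members were 3 with means over cells, without other cell types, without shared barcodes and without the largest droplets. In the adult library, means over cells turned Ifnar1 to -0.037, and Socs3, whose interval crossed 0, ran from -0.67 to 0.19. The higher members were 0 with thinned groups, means over cells, other cell types left out or cells with B1 genes left out, 2 without the largest droplets or in the lowest immediate-early tercile, and 4 with a minimum of 5000 UMIs. The lower members were 1 with at least 2 UMIs, with 5000 UMIs and in the lowest immediate-early tercile. The median was 0.53 with 5000 UMIs, 0.10 with means over cells and 0.52 in the lowest immediate-early tercile.

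For cells with over without Fcer2a, Ifnar1 in the neonatal library turned to -0.012 with thinned groups and to -0.0078 without cells with B1 genes, Socs3 to 0.13 in the lowest immediate-early tercile and Cish to 0.39 without cells with B1 genes, and Il10ra, whose interval crossed 0, ran from -0.16 to 0.19. The lower neonatal members were 1 with at least 2 UMIs, 5000 UMIs, other cell types left out, shared barcodes left out or the lowest immediate-early tercile, 2 with means over cells and 3 without the largest droplets. In the adult library Socs3 turned to 0.14 in the lowest immediate-early tercile. The higher members were 2 with at least 2 UMIs and in that tercile and 4 with 5000 UMIs, and the lower members were 2 with means over cells and 0 in that tercile. The median was 0.17 with thinned groups, 0.47 with 5000 UMIs and 0.16 with means over cells.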
